A study of Canis lupus familiaris with 48 samples.

Results

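ENSCAFG00000007045 is 1 of the 32704 genes in the count table and 1 of the 12654 genes with enough reads to be tested. It was picked out by its identifier after its levels in the groups had been seen: it was close to control after NaCl, lower after raffinose and lowest after urea. The sources used here pair none of the table's identifiers with a symbol, so the gene is given by its identifier and what its product does is not stated. In the CanFam3.1 dog genome it lies on the plus strand of chromosome 24, from 21094771 to 21096390. The annotation in the table gives it 3 exons, of 68, 491 and 555 bases, separated by introns of 286 and 220 bases. Its exons cover 1114 bases of a span of 1620 bases, and only 9.94% of the tested genes have a shorter span. No annotated gene (0) overlaps it.

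The libraries come from MDCK I cells, a line of dog kidney epithelium, grown for 144 h and kept for the last 24 h in 1 of 4 media. Control cells stayed in regular medium of 300 mOsm, and the other groups received 200 mOsm of added NaCl, raffinose or urea, for a total of 500 mOsm. Each group holds 12 libraries of polyadenylated RNA, 1 at each of the same 12 cell passages, numbered from 1 to 19. All are cultures of 1 cell line, so the spread given here is between passages of that line, and epithelial markers could not be looked up without symbols. Library totals ran from 3.92 to 16.16 megareads counted in genes, with a median of 10.51 megareads.

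Cells of the kidney medulla live at high and changing osmolality, set by salt and by urea. NaCl and raffinose, a sugar that cells hardly take up, stay mostly outside and draw water from the cell, while urea crosses membranes and raises osmolality with little lasting loss of volume. Cells facing a solute that stays outside gather compatible osmolytes through transporters and enzymes, and NaCl, unlike raffinose, also changes the ions of the medium.

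At matched osmolality, the level of ENSCAFG00000007045 differed widely between the solutes. Levels are given in CPM, the counted reads of the gene per megaread of the scaled library total. The mean was 150 ± 48 CPM in control and 167 ± 64 CPM after NaCl, but 35.6 ± 16 CPM after raffinose and 12.3 ± 2.0 CPM after urea (SD, n = 12 in each group). The NaCl mean is 112% of the control mean, the raffinose mean 23.8% and the urea mean 8.22%. In bulk RNA, fewer cells that express the gene and less RNA per cell cannot be told apart. The gene was chosen for this pattern, so the levels and fold changes between groups are a description and carry no p-value.

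Control libraries ran from 47.3 CPM at passage 1 through a median of 143 to 235 CPM at passage 17. The control library of passage 1 stood below the other 11, whose lowest had 120 CPM; without it the control mean was 159 ± 37 CPM (SD, n = 11). NaCl libraries ran from 67.1 CPM at passage 1 through a median of 173 to 305 CPM at passage 4. The control and NaCl ranges therefore overlapped almost entirely: 11 of the 12 NaCl libraries lay below the highest control library, and all 12 lay above the lowest. Raffinose libraries ran from 16.6 CPM at passage 8 through a median of 25.4 to 65.2 CPM at passage 4. The raffinose values left a gap, with 7 libraries at 26 CPM or lower and 5 between 43.4 and 65.2 CPM. Urea libraries ran from 7.99 CPM at passage 8 through a median of 12.6 to 15.1 CPM at passage 5. The urea library of passage 8 was also the shallowest of the series, with 33 reads of the gene out of 3.92 megareads, and the part of depth in its low value was not tested.

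**Figure D1:**
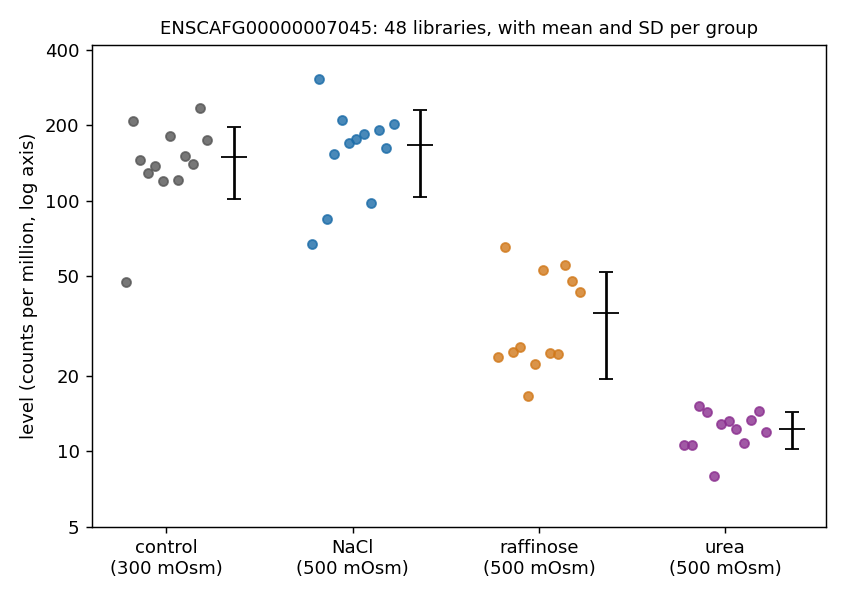
Level of ENSCAFG00000007045 in CPM (log axis) in the 48 libraries, by group; points within a group run from passage 1 at the left to passage 19 at the right, and the bar beside each group is the mean with its SD. Control and NaCl libraries share a range, the raffinose libraries lie between 16.6 and 65.2 CPM, and all urea libraries lie at 15.1 CPM or lower.

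Raw read numbers show how much counting stands behind each level. A control library held a median of 1482.5 reads of the gene (513 to 3374) and an NaCl library 1954.5 (626 to 3063). A raffinose library held a median of 303 reads (103 to 601) and a urea library 142 (33 to 210). The lowest group was thus still measured from 1611 reads in all, against 21729 in control.

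Scaled by exonic length, the gene was at 134 ± 43 CPM per kilobase in control and 150 ± 57 after NaCl (SD, n = 12). Among the tested genes on the same scale, 96.8% had a lower mean level in control and 96.6% after NaCl, so that in both media it belonged to the more abundant transcripts. After raffinose it had 32 ± 15 CPM per kilobase, with 76.4% of genes lower. After urea it had 11 ± 1.8 CPM per kilobase, with 45.5% of genes lower, which is near the middle of the tested genes.

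The 2 lowest places in the order of the groups were the same at every passage. Urea was the lowest of the 4 libraries and raffinose the next in 12 of 12 passages. NaCl was above control in 8 of 12 passages and below it in 4, with a same-passage ratio from 0.58 at passage 5 through a median of 1.27 to 1.52 at passage 8. Control and NaCl are thus the only neighbours in the order whose means lie closer than their spread. The ratio of raffinose to control ran from 0.12 at passage 8 through a median of 0.204 to 0.501 at passage 1, and that of urea to control from 0.0507 at passage 4 through a median of 0.0834 to 0.224 at passage 1. The highest ratios to control for both solutes fell at passage 1, where the control library was lowest.

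On the log2 scale, edgeR's fit over all tested genes gave a fold change of 0.16 ± 0.19 (SE) for NaCl against control. For raffinose against control it gave -2.06 ± 0.21, a 4.18-fold lower level, and for urea against control -3.59 ± 0.22, a 12.1-fold lower level. The urea value was the 11th lowest of 12654 and the raffinose value the 231st lowest, while the NaCl value lay at rank 4795 from the top. These 3 comparisons share the control libraries. The fit leaves out the pairing of libraries by passage. With passage as a replicate block the values were 0.15 ± 0.14 for NaCl, -2.08 ± 0.15 for raffinose and -3.52 ± 0.16 for urea (SE).

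Set directly against each other, NaCl exceeded raffinose by 2.22 ± 0.21, or 4.67-fold, the highest of all 12654 fold changes in that comparison; the next gene was at 2.21. In the same passage the NaCl library had between 2.83 times (passage 1) and 12.7 times (passage 8) the raffinose level. The lowest NaCl library, at 67.1 CPM, lay just above the highest raffinose library, at 65.2 CPM, so the groups did not overlap. Non-overlap with NaCl higher was found in 0.19% of the tested genes; the gene was chosen on this difference, and nothing is read from the comparison. NaCl exceeded urea by 3.75 ± 0.23, or 13.5-fold, and raffinose exceeded urea by 1.53 ± 0.22, or 2.88-fold. Neither of these pairs of groups overlapped, which with the same direction held for 13.6% and 14.2% of the tested genes, and urea lay wholly below control, as in 4.38%. Raffinose and control, which did not overlap with raffinose lower in 12.9% of the tested genes, did overlap here, because the control library of passage 1 lay below 4 of the raffinose libraries.

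Few of the genes that were lower after raffinose stayed near control after NaCl as this gene did. Of the 12654 tested genes, 1282 were lower at least 2-fold after raffinose at an edgeR adjusted p under 0.05. The median fold change of these genes after NaCl was -1.20 on the log2 scale. Of the 1282, 19 were within 0.5 log2 units of control after NaCl, and 4 of those 19, this gene among them, were also lower at least 2-fold after urea. The gene enters these counts by the values that chose it. Whether the counts are unusual beside the same shares over all tested genes was not tested.

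**Figure D2:**
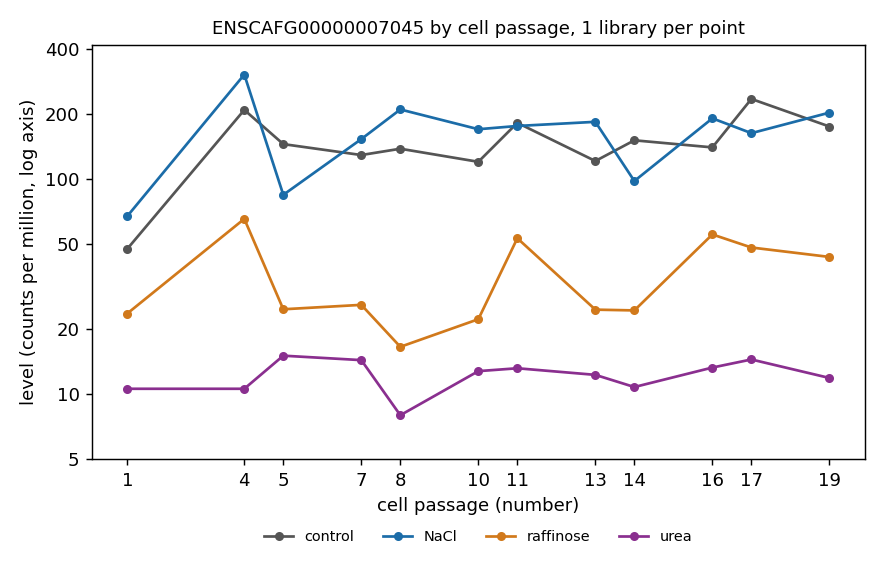
Level of ENSCAFG00000007045 in CPM (log axis) against the cell passage number, with 1 point per library and 1 line per group. The raffinose and urea lines run below the other 2 at all 12 passages, while the control and NaCl lines cross; passage 1 is low in control and NaCl.

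Earlier results of these data were known when the gene was chosen. It was picked for its levels in the groups, not for a trend with passage, so that trend was tested. Over the 48 libraries, with the group in the model, the slope of its level was 0.25 ± 0.13 log2 units per 10 passages (edgeR, p = 0.0636, adjusted p = 0.192), which did not pass; 16.2% of the tested genes had a trend that passed. This fit takes the 4 libraries of a passage as independent, although they correlate, so its p-values are too small for a trend carried by 12 passages. With the counts of each passage summed, the slope was 0.23 ± 0.23 (edgeR, adjusted p = 0.721), and genes with a trend that passed went from 2048 to 8. The slope over 48 libraries turned on single passages. Without passage 1 it was 0.06, and without passage 4, where control, NaCl and raffinose were among their highest, it was 0.52 (edgeR, adjusted p = 0.00145), a pass that carries the same limit. Fitted within groups, the slopes were 0.41 for control, 0.29 for raffinose, 0.18 for NaCl and 0.08 for urea. A difference between these slopes did not pass (edgeR, 3 solute by passage terms, p = 0.849, adjusted p = 1). No tested gene (0%) passed that test, with 442 genes at an unadjusted p under 0.05 and 2 passing with DESeq2; with passage as a replicate block 13 genes passed.

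Whether libraries of 1 passage varied together in this gene was tested between groups, and no relation passed after adjustment. Over 12 passages, 6 such relations between groups were computed on log2 CPM, with two-sided permutation tests. Control and raffinose had r = 0.56 (permutation p = 0.0385, adjusted p = 0.116) and rho = 0.70 (permutation p = 0.0141, adjusted p = 0.0845), and r was 0.55 without the 2 passages farthest from the raffinose median. Control and NaCl had r = 0.63 (permutation p = 0.0274, adjusted p = 0.116) but rho = 0.31 (permutation p = 0.319, adjusted p = 0.383). That r rests on passage 1: it was 0.27 without it, 0.72 without passage 5, and 0.27 without both, which lay farthest from the NaCl median. NaCl and raffinose had r = 0.48 (permutation p = 0.11, adjusted p = 0.22) and rho = 0.34 (permutation p = 0.277, adjusted p = 0.383), with r = 0.42 without passages 1 and 5.

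None of the 3 relations with the urea libraries passed either. Urea had r = 0.23 with control (permutation p = 0.437, adjusted p = 0.524; rho = 0.15, permutation p = 0.635, adjusted p = 0.635). With NaCl it had r = -0.17 (permutation p = 0.585, adjusted p = 0.585; rho = -0.43, permutation p = 0.169, adjusted p = 0.383). With raffinose it had r = 0.33 (permutation p = 0.299, adjusted p = 0.448; rho = 0.33, permutation p = 0.297, adjusted p = 0.383). Without the 2 passages farthest from the median of the treated group (for the last pairs, of the NaCl and the raffinose group), r for urea was 0.36 with control, -0.25 with NaCl and 0.53 with raffinose. For raffinose with urea r was -0.02 without passage 8, where both libraries were the lowest of their groups. At passage 4, where NaCl and raffinose were highest, urea had only 10.6 CPM, its second lowest value.

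The spread of the gene between passages was set beside that of other genes in each group. Its SD of log2 CPM was 0.58 in control, 0.62 after NaCl and 0.64 after raffinose, larger than in 98.8%, 98.7% and 98.5% of the genes with at least 5 CPM in that group. The control SD includes the library of passage 1, at a log2 CPM of 5.57, where the other control libraries ran from 6.91 to 7.88. The part of that library in the control rank was not tested. After urea the SD was 0.25, larger than in 68.4% of such genes. Counting alone would give a spread of about 0.039, 0.038, 0.09 and 0.14 log2 units in control, NaCl, raffinose and urea. The mean absolute deviation from the group median, in log2 units, was largest after raffinose at 0.521, then 0.424 after NaCl, 0.359 in control and 0.189 after urea. The difference between raffinose and urea, 0.332, did not pass after adjustment over the 6 pairs of groups (two-sided permutation test, p = 0.0413, adjusted p = 0.248), nor did that between NaCl and urea, 0.235 (permutation p = 0.111, adjusted p = 0.332). The other 4 pairs had permutation p-values from 0.245 to 0.73. A difference in spread between the groups was thus not detected with 12 libraries each. The test shuffled libraries without regard to the passages that pair them.

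The 2 genes whose levels were most like those of ENSCAFG00000007045 over the 48 libraries lay on chromosomes 2 and 17. Among 10137 other genes with a mean of at least 5 CPM, the median Pearson r of log2 CPM was -0.02 and 11 genes had r of at least 0.8. ENSCAFG00000013269 had the highest, r = 0.95 (chromosome 2, 75880627 to 75881786, plus strand, 4 exons), followed by ENSCAFG00000033956, r = 0.89 (chromosome 17, 5956896 to 5958887, plus strand, 2 exons); the third had 0.87. The 48 points share library depth and 4 group means, and these values are descriptions of likeness.

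ENSCAFG00000013269 had 76.7 ± 29 CPM in control and 67.4 ± 18 after NaCl, against 31.2 ± 13 after raffinose and 11.1 ± 2.5 after urea (SD, n = 12). Its NaCl library exceeded the raffinose library, and the raffinose library the urea library, in 12 of 12 passages, while NaCl exceeded control in 7. Its log2 difference between NaCl and raffinose was 1.11 ± 0.19, at rank 21 from the top, beside 2.22 for ENSCAFG00000007045. ENSCAFG00000033956 had 28.5 ± 13 CPM in control, then 13.2 ± 5.2 after NaCl, 5.2 ± 2.4 after raffinose and, lowest, 2.54 ± 1.0 after urea (SD, n = 12). Its order was NaCl over raffinose over urea in 12 of 12 passages, but its log2 fold change for NaCl against control was -1.10 ± 0.23, beside 0.16 ± 0.19 for ENSCAFG00000007045, and NaCl exceeded control in 1 passage.

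**Figure D3:**
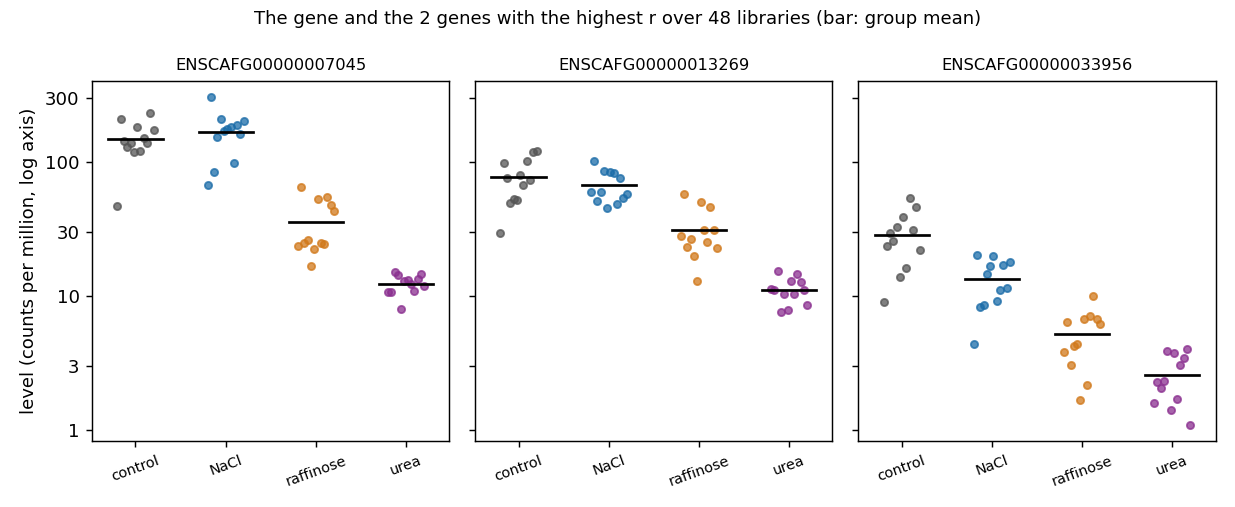
Levels in CPM (log axis) of ENSCAFG00000007045 and of the 2 genes with the highest Pearson r with it over 48 libraries, by group; each point is a library, in order of passage within a group, and the bar is the group mean. All 3 genes have their lowest mean after urea and a lower mean after raffinose than after NaCl, and the third gene alone has a mean after NaCl below 50% of control.

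ENSCAFG00000013269 and ENSCAFG00000033956 were chosen by r over the 48 libraries, which includes their deviations within groups. Their r and ranks within groups are therefore descriptions and no separate support for the likeness. With the group means removed, r with ENSCAFG00000007045 was 0.70 for ENSCAFG00000013269 and 0.64 for ENSCAFG00000033956, ranks 3 and 6 of 10137, and with passage means removed as well it was 0.72 and 0.64. Within control r was 0.88 and 0.75, within NaCl 0.62 and 0.81, and within raffinose 0.78 and 0.67. Within urea, where all 3 genes were at their lowest, r was 0.02 and -0.08. The control library of passage 1 was the lowest of its group for all 3 genes, with 29.3 CPM of ENSCAFG00000013269 and 8.94 CPM of ENSCAFG00000033956 beside the 47.3 CPM of ENSCAFG00000007045. The NaCl library of passage 4 was the highest of its group for all 3, at 102, 20.2 and 305 CPM in the same order.

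The highest likeness with group means removed belonged to a gene on chromosome 30 (30940191 to 31013775), with r = 0.74 within groups and 0.58 over the 48 libraries. Its log2 fold change against control was 0.25 ± 0.12 for NaCl, -0.70 ± 0.13 for raffinose and -0.19 ± 0.12 for urea. ENSCAFG00000007045 had 0.16, -2.06 and -3.59 in the same order. The chromosome 30 gene was thus also near control after NaCl and lower after raffinose, but not lowest after urea. Its log2 difference between NaCl and raffinose was 0.95 ± 0.13, at rank 38 from the top. The second highest, ENSCAFG00000030747, lay on chromosome 24 (47512035 to 47518469), the chromosome of ENSCAFG00000007045. It had r = 0.71 within groups but 0.01 over the 48 libraries. The genes least like ENSCAFG00000007045 were ENSCAFG00000017527, on the X chromosome, with r = -0.86, and ENSCAFG00000012829, on chromosome 5, with r = -0.85. The first had 50 ± 5 CPM in control and 173 ± 17 after urea (SD, n = 12), against 64.4 ± 7.6 after NaCl and 72 ± 6.4 after raffinose. It was thus highest where ENSCAFG00000007045 was lowest.

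The genes beside ENSCAFG00000007045 were looked at in the same comparisons. Of the 5 annotated genes before it and the 5 after it on chromosome 24, 4 had enough reads to be tested: the nearest before it and the 3 nearest after it. For NaCl against raffinose, 0 of the 4 passed (edgeR, adjusted p from 0.0513 to 0.263), against 15.4% of all tested genes, and their log2 differences lay between -0.72 and 0.21, where ENSCAFG00000007045 had 2.22. With passage as a replicate block all 4 passed, as did 3595 of the 12654 tested genes, and the cause was not tested. After urea 3 of the 4 rose and 0 fell, with log2 fold changes from -0.08 to 1.12. Of all 12654 tested genes, 3463 passed as higher and 3157 as lower after urea (52.3% in either direction). With so few neighbours, nothing is read from the 0 that fell. After raffinose 2 rose and 1 fell (74.9% of all), with all 4 passing under the replicate block, and after NaCl 3 rose and 1 fell (70.7% of all). Against urea, 1 was higher and 2 were lower with NaCl (72.6% of all tested genes passed), and the same numbers held with raffinose (76% of all).

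The nearest gene before it ends 26850 bases away and has 13 exons (21026827 to 21067920). It had 91 ± 13 CPM in control and 124 ± 26 after urea (SD, n = 12), a log2 fold change of 0.44 ± 0.08 (edgeR, adjusted p = 7.07e-06), where ENSCAFG00000007045 was 12.1-fold lower. The nearest gene after it starts 26933 bases away (21123324 to 21141171) and was barely expressed, at 0.482 ± 0.26 CPM in control and 1.22 ± 0.55 after raffinose (SD, n = 12). The next one after that (21145209 to 21196349, minus strand) rose after all 3 solutes, from 95.2 ± 11 CPM to 207 ± 18 after NaCl, 231 ± 15 after raffinose and 184 ± 24 after urea. The third gene after it (21212809 to 21269494) fell after NaCl (-1.07 ± 0.08, edgeR adjusted p = 5.63e-17) and raffinose (-1.28 ± 0.08, adjusted p = 5.85e-20) and did not pass after urea (-0.08 ± 0.08, adjusted p = 0.432). The other 6 annotated neighbours had between 0 and 37 reads in a group and were not tested.

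**Figure D4:**
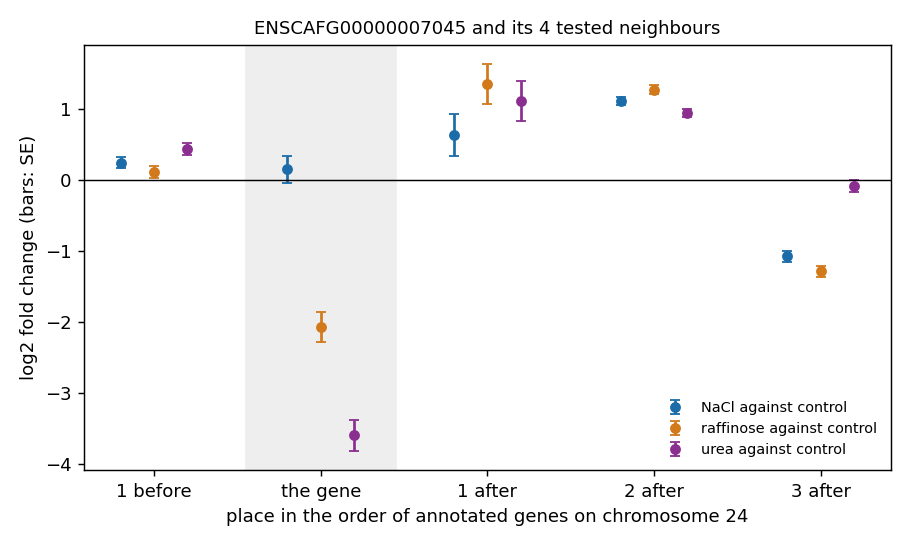
Log2 fold change against control (bars: SE) of ENSCAFG00000007045, shaded, and of the 4 tested genes among the 5 annotated on each side, in order along chromosome 24. The gene lies at 0.16 for NaCl, -2.06 for raffinose and -3.59 for urea; none of the 4 neighbours lies below -1.28.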

How the data were processed

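The authors deposited raw read counts per gene for 48 libraries. Per the file headers, reads were counted with featureCounts 1.5.1 over exons, without strand, on Ensembl release 87 of CanFam3.1; CASAVA and HISAT2 2.0.5 are named in the submitters' processing notes. No option for reads matching several places or genes was set. The meaning of an added number in the column names of passage 10 is not given. Of the table's 32704 identifiers, 0 could be paired with a symbol.

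Counts were filtered with filterByExpr, scaled by TMM factors and fitted over all libraries with edgeR 4.0.16 (glmQLFit, group term), in R 4.3.3; p-values were adjusted by Benjamini-Hochberg over 12654 genes at a threshold of 0.05. The SE is the log2 fold change over the square root of F. Log2 CPM used a prior count of 2, and permutation tests 100000 resamples. The fits were tested on simulated counts, drawn independently for each library with the same spread for every gene. That test does not cover the correlation between libraries of the same passage. Replicate libraries differed by more than sampling noise (lowest chi-square per gene 4.99).

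Passage labels pair the libraries: once group means were removed, 72 pairs of libraries of 1 passage correlated at 0.31 on average (66 over 0.1), other pairs at -0.03. The gene, rules and alternatives (RLE factors, library totals, other filters, DESeq2 1.42.0, passage as block or linear term, only the 2 groups compared, passages left out) were chosen with earlier results of these data known. Named genes are the 5 annotated neighbours on each side, the 2 with the highest and the 2 with the lowest r over 48 libraries, and the 2 highest within groups.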

Additional observations from a re-analysis of the deposited data

How the results depend on the processing

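The fold changes of ENSCAFG00000007045 were steady under the 22 alternatives tried for each comparison. Against control they were -0.01 to 0.24 for NaCl, -2.31 to -2.01 for raffinose and -3.68 to -3.52 for urea. NaCl against raffinose gave 2.12 to 2.30, NaCl against urea 3.62 to 3.84 and raffinose against urea 1.36 to 1.60. The value of -3.68 came from leaving out the control library of passage 1, a setting chosen after seeing the data. Scaling by library totals alone gave the low ends for NaCl against control, raffinose against control and raffinose against urea. That scaling shifted the all-gene median to -0.19 for NaCl and -0.25 for raffinose, and relative to it the gene stood at 0.19 and -2.06. With passage as a replicate block, genes called for NaCl against raffinose rose from 1948 to 3595, called neighbours in that comparison from 0 to 4, called neighbours for raffinose against control from 3 to 4, and genes called for solute by passage from 0 to 13; the numbers of neighbours called in the other 4 comparisons were the same. Solute by passage called 2 genes without a filter and 2 with DESeq2, and 0 to 1 with passages left out in turn.

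Genes called for a trend with passage, 2048, fell to 8 with the counts of a passage summed, 9 in control libraries only and 858 without passages 1 and 19, and were 1100 to 2745 with passages left out in turn. The slope of the gene was 0.06 to 0.52 with passages left out in turn. In the same way the raffinose and urea relation had r from -0.02 to 0.53, and the difference in spread between NaCl and control ran from -0.0211 to 0.128. With 10 genes on each side, 6 neighbours were tested and 5 were called both for NaCl against urea and for the raffinose comparison with it (5), where 3 of 4 had been; the cause of these changes was not tested. Leaving out the urea library of passage 8 or the control library of passage 1 alone were settings chosen after seeing the data. Depth limits the urea level of passage 8 most, at 33 reads.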
